A study of Mus musculus with 4 samples.

Results

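Endothelial cells 1 (EC1) is the larger of the blood vessel lining populations that the study's authors named in a single-cell RNA atlas of the mouse Achilles tendon. Its members are the cells that carry that name in the authors' deposited annotation: 190 of 1191 cells. The tissue came from male C57Bl/6 mice aged 6 weeks, with no treatment and no control group, so the 4 libraries form 1 group. No label states how many mice went into each library, so every p-value here measures the spread between these libraries only. Cells were captured with the 10x Chromium 3′ chemistry, version 3, in which each captured transcript is counted once by a unique molecular identifier (UMI) near its 3′ end. Levels are UMIs per 1000000 UMIs (CPM) of the cells of 1 label summed within 1 library, and they compare cells for the same gene, not genes with each other.

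Capillaries are the thinnest vessels, where oxygen, water and nutrients pass between blood and tissue. In fat-burning tissues their endothelium draws fatty acids from circulating lipoproteins with the lipase anchor GPIHBP1, the scavenger receptor CD36 and the binding protein FABP4. Arterial endothelium lies upstream under higher pressure and depends on Notch signalling, in which DLL and JAG ligands on one cell act on NOTCH receptors of a neighbour and switch on HEY factors, while SOX17 helps to keep arterial identity. The venules downstream carry the adhesion molecules by which leukocytes leave the blood.

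Promoters of the 10 genes that stood highest in EC1 against all other labels, taken by the rule given with the methods, were read from RefSeq (build GRCm38.p6). They make 18 windows, each from 250 bases before to 50 bases after a start site. The nuclear receptor half-site AGGTCA, read on both strands, was in 3 of the 18 windows against 16.3% of all 32851 windows; 2 of the 3 belong to Aqp7 and overlap each other, and the third to Ccdc85a. The RBPJ motif GTGGGAA was in 1 window, that of Mcf2l, against 6.38% of all, and the ETS motif CCGGAAGT was in 0 of 18, against 3.89% of all. These are matches of letters, not sites. The 250 bases before the start are shown for the genes with a half-site and for Car4, the gene with the highest ratio, in lower case with TGACCT, the half-site on the opposite strand, in capitals. Aqp7 (chr4:41048137-41048386, minus strand) holds it from position -49 and Ccdc85a (chr11:28584325-28584574, minus strand) from position -249, counted from the start site. The Car4 window (chr11:84957504-84957753, plus strand) has none.
Aqp7: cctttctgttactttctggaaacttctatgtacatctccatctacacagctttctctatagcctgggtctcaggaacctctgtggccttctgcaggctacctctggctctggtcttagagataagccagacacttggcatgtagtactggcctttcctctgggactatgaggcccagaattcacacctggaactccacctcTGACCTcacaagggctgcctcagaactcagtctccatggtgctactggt
Ccdc85a: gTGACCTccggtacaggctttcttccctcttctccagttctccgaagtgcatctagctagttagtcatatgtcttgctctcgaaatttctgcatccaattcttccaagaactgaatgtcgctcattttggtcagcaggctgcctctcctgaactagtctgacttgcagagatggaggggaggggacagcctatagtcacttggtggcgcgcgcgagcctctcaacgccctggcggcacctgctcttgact
Car4: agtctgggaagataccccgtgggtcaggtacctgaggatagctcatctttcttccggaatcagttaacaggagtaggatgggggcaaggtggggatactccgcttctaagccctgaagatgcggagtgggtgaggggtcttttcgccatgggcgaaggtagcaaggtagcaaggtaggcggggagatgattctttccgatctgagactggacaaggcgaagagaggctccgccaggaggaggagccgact

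The name was checked against its markers. Car4 encodes carbonic anhydrase 4, a membrane enzyme of capillary walls (chr11:84957786-84966044, plus strand, in the GENCODE M21 annotation of GRCm38). Its level in EC1 was 244, 299, 274 and 41.9 CPM in libraries 1 to 4. The next label, endothelial cells 2 (EC2), averaged 16.7 CPM, and library 4 lay far under the other 3 libraries of EC1. Aqp7, a glycerol channel (chr4:41033074-41048139, minus strand), was at 237, 368, 343 and 168 CPM, and every EC1 library was above every EC2 library (mean 25.9 CPM). Cxcl12, a chemokine of arterial endothelium and stroma (chr6:117168535-117181367, plus strand), was at 4888, 4015, 5415 and 6407 CPM, against a mean of 1108 ± 834 CPM (SD, n = 3) in tendon fibroblasts 2, the next label. Fabp4, the fatty acid binding protein (chr3:10204088-10208576, minus strand), averaged 22794 ± 4610 CPM in EC1 and 19470 ± 7173 CPM in EC2 (SD, n = 4 each). The ranges of these 2 endothelial labels overlap, so Fabp4 marks both and does not set EC1 apart.
Sema3g, a semaphorin of arterial endothelium (chr14:31217860-31230352, plus strand), went against its use as a marker within the whole tendon. EC1 had 212, 206, 84.4 and 322 CPM, a mean of 206 ± 97.2 CPM (SD, n = 4). The cells named nerve cells 1 had 370 ± 16.3 CPM (SD, n = 3), above every EC1 library. Among the blood endothelial labels it did separate: in EC2 it was at 2.62, 9.42, 0 and 13.5 CPM. Across all labels the capillary part of the name therefore rests on Car4 and Aqp7, and the arterial part on Cxcl12 alone of these markers. Within endothelium the arterial part also rests on Sema3g. Cxcl12 had UMIs in 181 of the 190 EC1 cells, so its presence did not single out an arterial subset of them. Gja5, another arterial gene, had only 17 UMIs in 12 EC1 cells, with 0 in libraries 3 and 4.

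EC1 made up 16.2% of library 1 (95% Clopper-Pearson interval 13.3 to 19.5), 18.7% of library 2 (14.0 to 24.1), 10.9% of library 3 (7.39 to 15.4) and 20.2% of library 4 (13.1 to 28.9), with 94, 46, 28 and 22 cells. Intervals cover counting error only. Of the cells of the 3 endothelial labels EC1 was 64.3 ± 2.75% (SD, n = 4), a narrower spread than its share of all cells, 16.5 ± 4.06%. Median depth per EC1 cell was 7343 UMIs, with library 3 the shallowest at 3946.5, and the mitochondrial share had a median of 4.37%. No cell barcode was shared between libraries. Transcripts of other cell types were present at low summed levels in EC1: the pericyte list ran from 491 to 1492 CPM, the fibroblast list from 181 to 749, the Schwann list from 74.1 to 195 (Mag at 0) and the immune list from 5.28 to 28.7 (Ptprc and Adgre1 at 0). The adipocyte list ran from 41.9 to 244 CPM, with none of its measured genes at 0, and the skeletal muscle list from 9.67 to 31.7 (Myh1 and Myh2 at 0). Of the EC1 cells, 21 held UMIs of 4 or more pericyte genes, and their median depth was 19807 UMIs against 6342 for the others; whether they are doublets was not tested, and no doublet caller was run. Hemoglobin transcripts summed to 195 to 540 CPM in libraries 1 to 3 and 7368 CPM in library 4.

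Genes that stood highest in EC1 against every other label included Car4, the glycerol channel Aqp7, the fat synthesis regulator Thrsp and the receptor Notch4. Of 1847 genes at 100 CPM or more in EC1, 382 (20.7%) had their highest mean of the 13 labels there, and for 121 (6.55%) every EC1 library was above every library of the next label. At a ratio of 2 or more to the next label stood 62 genes, and 52 of them did not overlap it. The next label was EC2 for 152 of the 382 genes, endothelial cells 3, the third endothelial label, for 78, and pericytes, the contractile cells wrapped around small vessels, for 43. Levels used libraries with 5 or more cells of a label, which left endothelial cells 3 and tendon fibroblasts 3 with 1 library each. Where such a label came next, lying above every library meant lying above 1 value.
Besides Car4 and Aqp7, the ratios were largest for the following genes. Thrsp, a regulator of fat synthesis (chr7:97412938-97417730, minus strand), was at 149, 227, 269 and 216 CPM, 11.4 times its EC2 mean of 18.8 CPM. Notch4, the endothelial Notch receptor (chr17:34564268-34588503, plus strand), was at 132, 181, 153 and 129 CPM, 10.5 times the pericyte mean of 14.2 CPM. These 2 genes were even over the 4 libraries. Sema7a, a membrane semaphorin, was at 287, 385, 343 and 448 CPM, 9.34 times the pericyte mean of 39.1 CPM. Mcf2l, a guanine nucleotide exchange factor, was at 320, 565, 491 and 332 CPM, 8.02 times its EC2 mean of 53.3 CPM. Both lay above the next label in every library. Timp4, a metalloproteinase inhibitor, varied more, at 756, 871, 1562 and 403 CPM against a pericyte mean of 167 CPM. Its annotation lies within that of Syn2, and pooled over EC1 the level of Syn2 was 25.1 CPM. Ccdc85a had a ratio of 7.29 and the long noncoding RNA Gm12002 a ratio of 5.95. Gm12002 lies antisense to Cobl, which was at 1.0 CPM against 127 CPM for Gm12002. Slc26a10 completed the 10 genes, at 62.3, 152, 274 and 48.3 CPM. Slc26a10 overlaps B4galnt1, and 53.2% of its UMIs came from 10 cells. Whether counting used strand is not given in the sources used here, so reads of overlapping genes could not be told apart.

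**Figure D1:**
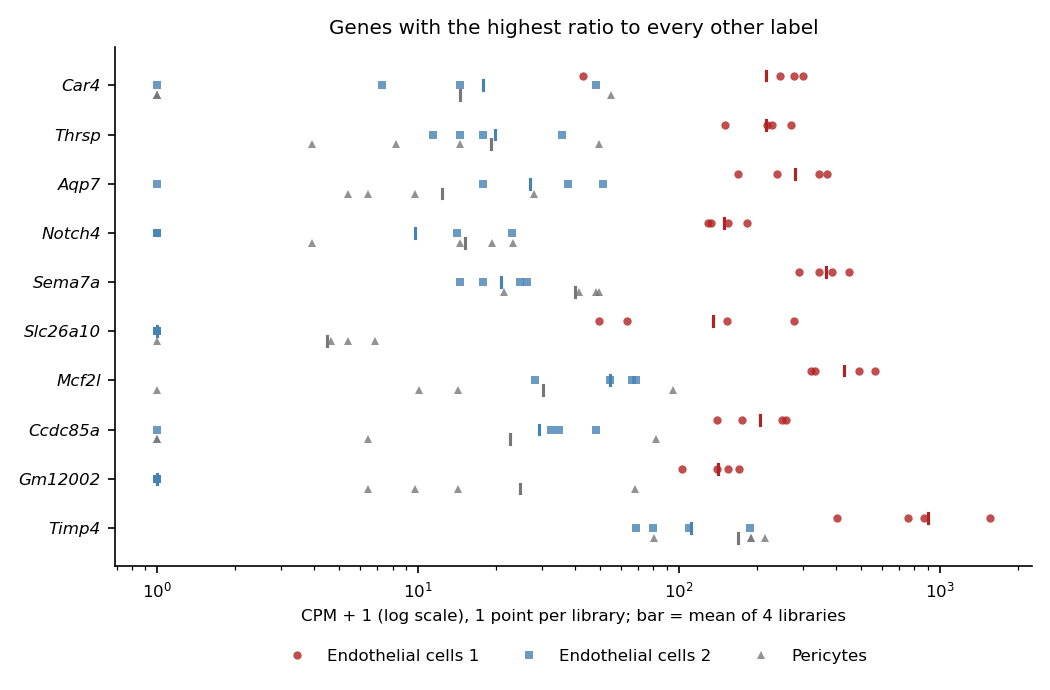
CPM plus 1 on a log axis for the 10 genes with the largest ratio of EC1 to the next label. Points are libraries of EC1, EC2 and pericytes and the short bar is the mean; Car4 in EC1 has 3 points between 244 and 299 CPM and 1 at 41.9 CPM.

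Against all other cells of the same library, EC1 was higher for most pan-endothelial and capillary genes and lower for genes of fibroblasts, pericytes and Schwann cells. Of 9050 genes tested with edgeR's quasi-likelihood test and the library as a block, 1268 were higher (14% of those tested) and 1397 lower (15.4%) at an adjusted p under 0.05, and the median log2 difference over all genes was -0.03. The authors drew the label from these same counts, so calls between labels describe the population and how evenly it shows in the libraries, and do not test whether it exists. Of 20 pan-endothelial genes 19 were higher, with a median of 2.58, and Lyl1 was not called. Of 12 capillary genes 9 were higher, with a median of 3.76. Aqp1, Rgcc and Meox2 were not called. Of 23 receptors of vessel growth 18 were higher and 0 lower. Of 23 arterial genes 16 were higher and 1 lower. Of 12 venous genes 5 were higher and 3 lower, and of 4 lymphatic genes 0 were higher and 3 lower. Lists for other cell types went the other way: 0 higher and 10 lower among fibroblast genes, 0 and 9 of 11 among pericyte genes, 0 and 7 among Schwann cell genes.
The rule for named genes gave 9 of the 10 genes with the highest ratios, together with Gpihbp1, Rbp7 and 8430408G22Rik. Gpihbp1, the protein that carries lipoprotein lipase across the capillary wall (chr15:75596628-75599481, plus strand), was at 1415, 1422, 1932 and 928 CPM in EC1 and at 69.5, 51.4, 23.6 and 35.7 CPM in other cells, a log2 difference of 4.67 ± 0.32 (SE). Rbp7, a retinol binding protein, was at 625, 449, 633 and 757 CPM against 19.8, 26.5, 13 and 24.4 CPM (4.54 ± 0.26). In both the 2 sets of libraries lie far apart. Of the genes that were lower, Lpar1 had 0 UMIs in EC1 and was at least 75.2-fold lower, with a floor of 3 counts over all libraries. Sdc2, Lum, Pcolce2, Fndc1, Anxa8 and Ctss had 1 or 2 UMIs each.
Genes of class I antigen presentation and interferon response stood above other cells in EC1. Of 20 tested 17 were higher and 1 was lower (4 without library 3 or library 4). The antigen H2-K1 was at 962, 929, 850 and 938 CPM against 313, 295, 150 and 286 CPM (1.52 ± 0.19). Bst2, an interferon-induced membrane protein, was at 404, 424, 396 and 413 CPM against 89.1, 59.3, 32.2 and 39.4 CPM (2.61 ± 0.24). EC1 varied little between libraries in both. Cd74, the class II invariant chain that marks antigen presenting cells, was the one lower member (-4.15 ± 0.37). Against EC2 alone the list separated less: of 19 tested 7 were higher, 1 lower and 11 not called, with a median of 0.43.

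The closest comparison was with EC2, the other common blood endothelial label (30, 25, 11 and 8 cells, median depth 8322.5 UMIs). EC1 was higher for 10 of 12 capillary genes, 5 of 9 genes of fatty acid uptake, 10 of 18 arterial genes and both type IV collagen chains. EC2 was higher for 10 of 12 venous genes, the leukocyte adhesion molecules Selp, Sele and Icam1 among them. Of 5126 genes 397 were higher in EC1 (7.74%) and 536 lower (10.5%), and the median log2 difference over all genes was 0.02. The count was 484 without library 2, 616 without library 1 and 570 with DESeq2, against 933 (18.2%) here. Of these 933 genes 838 went the same way in all 4 libraries. The share of all tested genes whose EC1 and EC2 libraries did not overlap was not computed.

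Venous genes were low in EC1. Of 12 tested 0 were higher and 10 lower, with a median of -2.51. Selp, the P-selectin on which leukocytes roll, was at 6.92, 18.7, 5.28 and 0 CPM in EC1 and at 749, 857, 1430 and 365 CPM in EC2 (-6.54 ± 0.30, adjusted p = 4.59e-10). Ackr1, a chemokine receptor of venules, was at 7.91, 4.16, 0 and 0 CPM against 304, 578, 555 and 284 CPM (-6.30 ± 0.35). Its annotation overlaps that of Cadm3 on the same strand. Vwf, the clotting factor carrier, was at 55.4, 76.9, 111 and 77.4 CPM against 1063, 879, 1514 and 473 CPM (-3.71 ± 0.23). Nr2f2, the transcription factor of venous identity, was at 153, 137, 201 and 93.5 CPM against 610, 694, 521 and 662 CPM (-2.21 ± 0.21). For these 4 genes the EC1 and EC2 libraries did not overlap. The adhesion molecules Sele (-5.76) and Icam1 (-2.82) and the secreted protein Lrg1 (-3.32) were also lower. Ephb4, the venous ephrin receptor, was not called (-0.07 ± 0.18, adjusted p = 0.867), and neither was the apelin receptor Aplnr (0.35 ± 0.19, adjusted p = 0.246).

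Capillary genes were higher in EC1 with 2 exceptions. Of 12 tested 10 were higher and 2 lower, with a median of 2.05. Btnl9, a butyrophilin-like membrane protein, was at 343, 320, 148 and 197 CPM in EC1 and at 13.1, 22.0, 0 and 0 CPM in EC2 (4.33 ± 0.33, adjusted p = 6.41e-08). Rgcc, a regulator of the cell cycle that is abundant in capillaries, was at 830, 1141, 1626 and 890 CPM against 168, 94.2, 84.1 and 40.5 CPM (3.17 ± 0.26). Neither gene overlapped between the labels. The 2 lower members were Meox2 (-1.01 ± 0.23), a transcription factor of lipid transport in muscle capillaries, and Aqp1, the water channel. Aqp1 was at 1631, 2436, 3911 and 596 CPM in EC1 and at 3633, 3934, 4692 and 3093 CPM in EC2 (-1.15 ± 0.23, adjusted p = 0.00159). Its ranges overlap, and without the library block its adjusted p was 0.0669; over all alternatives it ran from 3.85e-10 to 0.0669. Library 4 of EC1 was lowest in Aqp1, Car4, Gpihbp1, Timp4 and Tcf15, and its capillary list summed to 8376 CPM against 11944 to 17042 CPM in the others.

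Lpl, Gpihbp1 and Cd36, which release fatty acids and take them into the cell, were higher in EC1, while Fabp4 was not called. Of 9 uptake and binding genes 5 were higher in EC1 and 0 lower, with a median of 0.78, and of 13 genes of storage, breakdown and regulation 7 were higher (4 without library 1) and 1 lower, with a median of 0.86. Adipocyte transcripts had a higher sum in EC1 than in EC2 in all 4 libraries: the list summed to 244, 93.5, 63.3 and 41.9 CPM in EC1, with none of its 7 measured genes at 0, and to 96.8, 50.2, 16.8 and 0 CPM in EC2, with Cidec at 0. Of these genes 1, Cfd, could be tested (1.51 ± 0.36, adjusted p = 0.00572); the adjusted p was 0.0654 without library 2 and 0.16 without the library block, in a range of 0.00103 to 0.16. The part of adipocyte transcripts in the fatty acid results was not tested. Lpl, lipoprotein lipase, which frees fatty acids from circulating triglyceride (chr8:68880491-68907448, plus strand), was at 553, 867, 1715 and 306 CPM in EC1 and at 115, 18.8, 33.6 and 67.5 CPM in EC2 (3.45 ± 0.39, adjusted p = 7.02e-06). Gpihbp1, its anchor, was at 414, 264, 135 and 257 CPM in EC2 (2.23 ± 0.23, adjusted p = 2.28e-06). Cd36 was at 4409, 5034, 4850 and 3152 CPM in EC1 and at 2102, 2282, 1144 and 2620 CPM in EC2 (1.04 ± 0.20, adjusted p = 0.00105). None of these 3 overlapped between the labels. Fabp4, the next step inside the cell, was not called (0.22 ± 0.18, adjusted p = 0.468): EC2 had 16556, 22076, 11286 and 27961 CPM, and its library 4 was above all 4 EC1 libraries. Scarb1, the receptor for high density lipoprotein, was at 745, 746, 718 and 625 CPM in EC1 and at 589, 640, 1026 and 594 CPM in EC2, with a difference of 0.00 ± 0.16.
Among the regulators Thrsp was at 10.5, 34.5, 16.8 and 13.5 CPM in EC2 (3.20 ± 0.31, adjusted p = 9.78e-07). Tcf15, a partner of MEOX2 in driving fatty acid transport genes, was at 378, 615, 523 and 255 CPM in EC1 and at 110, 144, 50.5 and 122 CPM in EC2 (1.88 ± 0.23). Tcf15 and Meox2 thus lay on opposite sides. Mgll, the lipase for monoglycerides, was at 1288, 1403, 1636 and 1212 CPM against 571, 719, 370 and 1040 CPM (0.98 ± 0.21). Pparg, the nuclear receptor that many lipid genes answer to, was at 186, 148, 137 and 48.3 CPM in EC1 and at 49.7, 62.8, 33.6 and 67.5 CPM in EC2 (1.34 ± 0.30, adjusted p = 0.00411). Library 4 went the other way. Without library 1 its adjusted p was 0.131, within a range of 8.01e-05 to 0.131 over all alternatives.

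**Figure D2:**
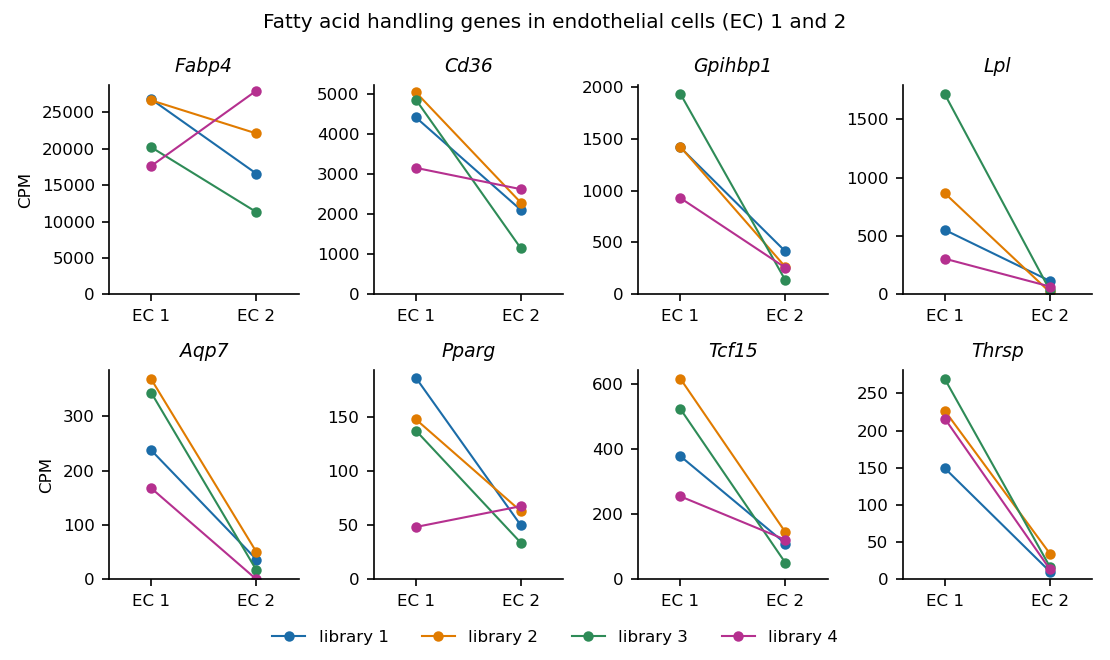
CPM of 8 fatty acid genes in EC1 and EC2, with 1 line for each library joining its 2 values. Lpl, Gpihbp1, Cd36, Aqp7, Thrsp and Tcf15 fall from EC1 to EC2 in all 4 libraries, while Fabp4 and Pparg have a library that goes the other way.

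Arterial genes were split. Of 24 genes 18 were tested, and 10 were higher in EC1 and 2 lower, with a median of 1.09. The higher count ran from 3 of 8 tested in thinned cells to 13 of 24 without a filter on low counts. Cxcl12 was at 769, 634, 673 and 378 CPM in EC2 (2.95 ± 0.19, adjusted p = 1.22e-08). Sox17 was at 343, 360, 216 and 371 CPM in EC1 and at 149, 97.3, 50.5 and 108 CPM in EC2 (1.51 ± 0.21). Sema3g differed by 4.97 ± 0.39. Unc5b, a netrin receptor of arterial and tip cells, was at 69.2, 52.0, 36.9 and 35.5 CPM in EC1 and had 1 UMI in EC2, a ratio of 47.3 (95% counting interval 8.32 to 1885). The 2 lower members were genes of the vessel wall matrix. Eln, elastin, was at 407, 490, 623 and 622 CPM against 1311, 1133, 1346 and 1229 CPM in EC2 (-1.33 ± 0.16), with no overlap. Mgp, the matrix Gla protein that keeps calcium from settling, was at 250, 235, 26.4 and 425 CPM against 866, 581, 858 and 230 CPM (-1.56 ± 0.41, adjusted p = 0.0118). Library 4 went the other way, and the adjusted p of Mgp was 0.0687 without library 1 and 0.0886 without library 2, within 3.47e-11 to 0.312 over all alternatives. Jag1 (0.15 ± 0.29) and Edn1 (-0.19 ± 0.21) were not called. The arterial list summed to 9392 to 9822 CPM in libraries 1 to 3 of EC1 and to 12992 CPM in library 4.

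Notch genes were tested as a list of their own, and 4 of 12 were higher in EC1 and 1 lower, with a median of 0.21. In cells thinned to equal depth only 4 of these genes could be tested, and 0 were higher. The receptor Notch4 was at 13.1, 22.0, 0 and 0 CPM in EC2 (3.33 ± 0.36, adjusted p = 4.26e-06). The ligand Jag2 was at 181, 218, 164 and 200 CPM in EC1 and at 65.4, 87.9, 84.1 and 67.5 CPM in EC2 (1.29 ± 0.22). Hey1, a target that represses venous genes, was at 67.3, 81.1, 52.8 and 58.0 CPM against 13.1, 12.6, 0 and 0 CPM (2.63 ± 0.43). Notch4, Jag2 and Hey1, picked from the 12 tested, did not overlap between the labels. Another ligand, Dll1, was the lower member, at 46.5, 41.6, 58.1 and 32.2 CPM against 194, 267, 336 and 284 CPM (-2.55 ± 0.23). Dll4, the main arterial ligand, overlapped between the labels (101, 121, 73.9 and 51.6 CPM against 28.8, 44.0, 84.1 and 81.0 CPM; 1.03 ± 0.34, adjusted p = 0.0452). It lost its call without library 1 (adjusted p = 0.479), without library 2 (0.396) and without the block (0.0672), in a range of 0.00273 to 0.479.

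Receptors and signals also parted the labels. Of 21 receptors of vessel growth 7 were higher in EC1 and 5 lower (3 without library 1 or library 3), with a median of 0.22. Nrp1, the VEGF coreceptor, was at 762, 898, 1124 and 925 CPM against 275, 364, 286 and 365 CPM (1.41 ± 0.17), and Kdr, the main VEGF receptor, differed by 1.09 ± 0.19. Of 19 signals that endothelium sends to other cells 8 were higher (4 without library 2) and 4 lower, with a median of 0.40. Pdgfb, which recruits pericytes, was at 503, 686, 364 and 632 CPM against 131, 148, 135 and 203 CPM (1.84 ± 0.19). Nrp1 and Pdgfb did not overlap between the labels. Igf1, insulin-like growth factor 1 (chr10:87858265-87937042, plus strand), was lower in EC1, at 55.4, 58.2, 84.4 and 51.6 CPM against 168, 336, 168 and 419 CPM (-2.16 ± 0.26). The growth factor Bmp4 (-3.07 ± 0.31) was lower too, as was Il6st, the shared receptor chain of the interleukin 6 family (-2.47 ± 0.23; 313, 276, 137 and 409 CPM against 1473, 1595, 1816 and 1121 CPM).

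Basement membrane genes were higher in EC1 or not called, while junction genes went both ways. Of 16 basement membrane genes 10 were higher in EC1 and 0 lower, with a median of 0.99. Col4a1, the type IV collagen chain, was at 1741, 2492, 2138 and 1576 CPM against 547, 553, 286 and 1135 CPM (1.65 ± 0.25). Its partner Col4a2 differed by 1.44 ± 0.22, and the laminin Lama4 by 2.40 ± 0.36. Of 17 junction and caveola genes 7 were higher (4 without library 2) and 2 lower. Of 7 genes of the tight barrier of brain vessels 2 were higher and 3 lower (1 without library 1). Cldn5, a claudin that seals junctions, was at 495, 447, 333 and 461 CPM against 105, 50.2, 0 and 0 CPM (2.89 ± 0.33). Plvap, which forms the diaphragms of leaky endothelium, was at 938, 815, 565 and 1750 CPM against 1693, 2935, 2943 and 2999 CPM (-1.49 ± 0.21), so that only library 4 of EC1 reached the range of EC2. Immediate early genes, which are known to respond to tissue dissociation, were also tested: 2 of 18 were higher in EC1 and 11 lower, with a median of -0.52. Without library 2 the lower count was 6. Atf3 was at 180, 56.1, 73.9 and 90.2 CPM against 667, 279, 656 and 378 CPM (-2.29 ± 0.20), and Btg2 was higher (1.09 ± 0.19). The median mitochondrial share was 4.37% in EC1 and 6.14% in EC2. The part of cell state at capture in these differences was not tested. Of the 3 hemoglobin genes tested all 3 were higher in EC1, and without library 4 none of the 3 was called; the adjusted p of Hba-a1 was then 0.728, in a range of 4.49e-08 to 0.728. Of 4 pericyte genes tested only Tagln was called, and it was lower in EC1, at 395, 254, 222 and 384 CPM against 1327, 1300, 1446 and 2729 CPM (-2.43 ± 0.18).

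Among the genes named by size of difference, outside the groups above, Rsad2, an antiviral enzyme, was at 260, 426, 306 and 377 CPM in EC1 and at 23.6, 28.3, 0 and 0 CPM in EC2 (3.91 ± 0.32). Its 643 UMIs came from 120 EC1 cells. Gm12002 and Slc26a10 had 0 UMIs in EC2 and were at least 35.2-fold and at least 28.3-fold higher. On the other side Fgl2, a fibrinogen-like protein, was at 3.96, 2.08, 0 and 0 CPM against 283, 333, 286 and 149 CPM (-6.68 ± 0.37), and it shares its place with Ccdc146. The enzyme Nt5e (-6.62), the lipopolysaccharide binding protein gene Lbp (-6.20) and the adhesion gene Cadm3 (-5.31) were lower as well. Esm1, a proteoglycan of sprouting tip cells, was at 33.6, 47.8, 36.9 and 122 CPM in EC1 and at 0 in all 4 EC2 libraries, at least 14.2-fold higher.

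**Figure D3:**
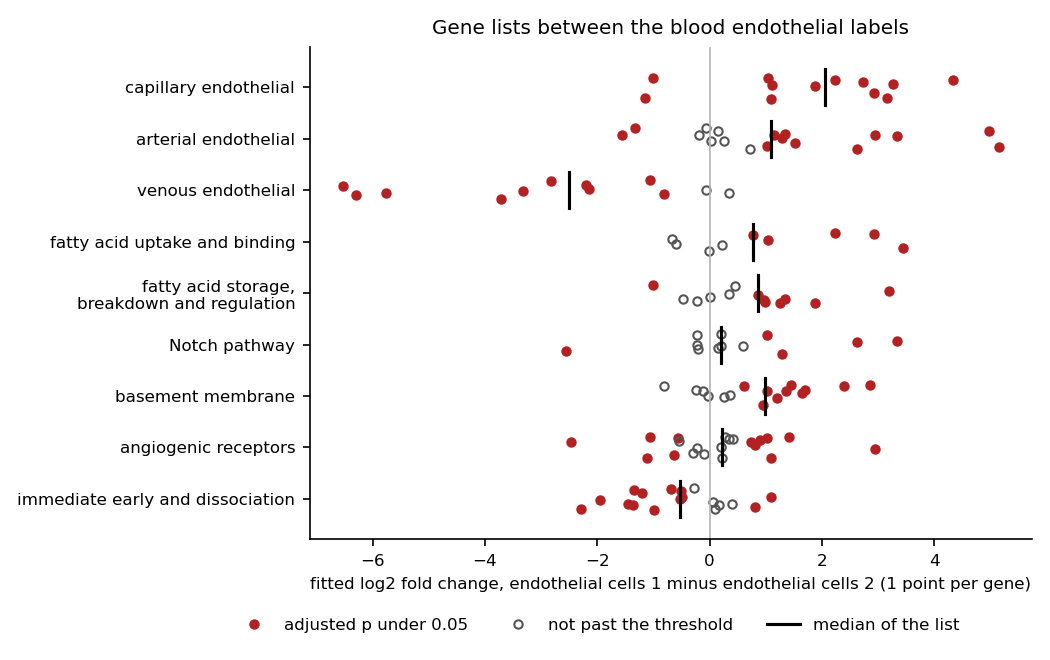
Fitted log2 difference between EC1 and EC2 for each tested gene of 9 lists; above 0 is higher in EC1. Filled points have an adjusted p under 0.05 and bars are medians: the venous list has its median at -2.51 and the capillary list at 2.05.

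Against pericytes (55, 25, 11 and 16 cells, median depth 9188 UMIs), 965 of 5493 genes were higher in EC1 (17.6%) and 912 lower (16.6%), with a median over all genes of 0.01. Capillary genes and genes of antigen presentation were higher in EC1, and contractile genes in pericytes. Of 12 capillary genes 11 were higher, with a median of 3.72, and of 19 antigen and interferon genes 16 were higher and 0 lower, with a median of 2.0. Of 9 genes of fatty acid uptake 7 were higher and 1 lower, and of 13 genes of storage, breakdown and regulation 5 were higher and 3 lower, with none of the 3 called lower without library 2. Of 10 pericyte genes all 10 were lower, with a median of -4.93. Acta2, smooth muscle actin, was at 12.9, 35.3, 68.6 and 9.67 CPM in EC1 and at 9149, 11284, 2554 and 7195 CPM in pericytes (-8.31 ± 0.62). Pi15 had 0 UMIs in EC1, at least 254-fold lower, and so had the integrin gene Itga8, at least 152-fold lower. Aplnr, the apelin receptor, was at 210, 372, 311 and 148 CPM in EC1 and at 0, 0, 13.4 and 13.3 CPM in pericytes (5.88 ± 0.58). C1qtnf9, a secreted relative of adiponectin, was at 363, 459, 607 and 319 CPM against 12.7, 17.5, 26.9 and 17.7 CPM (4.45 ± 0.25).
The pericyte label carried endothelial transcripts too: Fabp4 was at 2822, 1869, 8026 and 2487 CPM there, and 12 of 104 thinned pericytes (11.5%) had a UMI of Pecam1, an endothelial adhesion molecule. Their part in these differences was not tested. Lpl did not separate EC1 from pericytes (261, 367, 336 and 375 CPM in pericytes; 0.94 ± 0.34, adjusted p = 0.0584), while Gpihbp1 did (4.30 ± 0.45). Pericytes were the lower side for Gpihbp1 in every library, at 49.0, 11.7, 255 and 70.7 CPM.
The 2 cell types differed in levels of Notch pathway members: of 15 genes 7 were higher in EC1 (3 without library 1) and 6 lower. Notch4 (3.20), the ligand Jag2 (2.16 ± 0.30) and the receptor-modifying enzyme Lfng (3.69 ± 0.35) were higher in EC1. Notch3, the receptor of mural cells, was at 63.3, 14.5, 5.28 and 61.2 CPM in EC1 and at 1004, 1108, 914 and 804 CPM in pericytes (-4.84 ± 0.43). Jag1, a ligand (chr2:137081456-137116644, minus strand), was at 89.0, 121, 47.5 and 142 CPM against 332, 414, 148 and 287 CPM (-1.74 ± 0.22). Heyl, Notch2, Hes1 and Nrarp were lower as well. Of 16 basement membrane genes 3 were higher in EC1 and 5 lower, beside 17.6% and 16.6% of all genes tested. The median of the list was 0.06, against 0.01 over all genes. Hspg2, perlecan, was higher (1.08 ± 0.21) and Sparcl1 lower (-1.42 ± 0.23). Col4a1 was not called (0.06 ± 0.27, adjusted p = 0.911), so the collagen that set EC1 above EC2 was at overlapping levels in EC1 and pericytes.

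At the level of single cells, each cell was thinned to 2400 UMIs so that depth was equal, and 14 shallower EC1 cells were left out, leaving 176. Pan-endothelial genes were seen in nearly every EC1 cell: Pecam1 in 96.8 ± 2.59% and Cdh5 in 94.5 ± 6.62% of cells (mean and SD over 4 libraries). Cxcl12 was seen in 93.4 ± 2.41% of thinned EC1 cells, against a mean of 0.764% in tendon fibroblasts 1, taken as a type that should lack endothelial genes. Gpihbp1 was in 78.5 ± 13.5% and Cd36 in 88.8 ± 6.60%, against 0 of 161 and 3.40% in those fibroblasts. A count of 0 of 161 allows a share of cells with a UMI of up to 1.86%. EC2 was closer to EC1 than the fibroblasts were. Of thinned EC2 cells, Cd36 was in 86.1 ± 10.4%, Cxcl12 in 52.2 ± 20.5% and Gpihbp1 in 29.3 ± 19.6%, so Cd36 detection did not set EC1 apart. The named markers of lower level were each seen in a minority: Car4 in 30.4 ± 14.5%, Aqp7 in 35.7 ± 8.57% and Sema3g in 29.9 ± 6.78%. Unthinned the shares were 44.3, 64.9 and 49.5%, so the share with a UMI was larger at full depth. Fabp4 was in 95.5 ± 3.69% of EC1 cells, but also in 24.7 ± 14.6% of the fibroblasts, so a UMI of Fabp4 alone did not mark endothelium. Selp was in 2 of 176 EC1 cells, against a mean of 66.8% of EC2 cells.

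The name joins capillary and arterial endothelium, and the next comparison addresses whether both kinds of transcript occurred in the same cells. Thinned EC1 cells were split by 6 arterial anchor genes (Sema3g, Gja5, Bmx, Hey1, Stmn2 and Fbln5): 97 cells had 0 anchor UMIs, 30 had 1 and 49 had 2 or more. Median depth before thinning was 7733, 8726 and 8821 UMIs, so the groups were of like depth. Summed UMIs of the 12 capillary genes had a median of 34, 34 and 19 per thinned cell in these groups. By library the median was 34 in cells with 0 and 14 in cells with 2 or more in library 1, and 35 and 23 in library 2. In library 3 the order was reversed, 46 and 53, and in library 4 they were close, 17.5 and 15.5.
From 2 anchor UMIs on, the median of capillary UMIs was lower in each higher bin of anchor UMIs. The 22 cells with 2 or 3 anchor UMIs had a median of 25 capillary UMIs and the 13 cells with 4 to 7 a median of 22. The 14 cells with 8 to 19 had a median of 1 (range 0 to 29), and 10 of them held 3 or fewer. These bins were drawn after the values were seen, and the 14 cells came from libraries 1, 2 and 4 (7, 5 and 2 cells). Capillary and anchor UMIs thus met under the same cell barcodes at low anchor levels, and in 10 of the 14 cells at the highest few capillary UMIs were seen. Possible doublets were cells with UMIs of 4 or more pericyte genes or more than 2 times the library's median UMIs. They numbered 31, 6 and 14 in the groups with 0, 1 and 2 or more anchor UMIs. Whether doublets had a part in the shared transcripts was not tested.

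**Figure D4:**
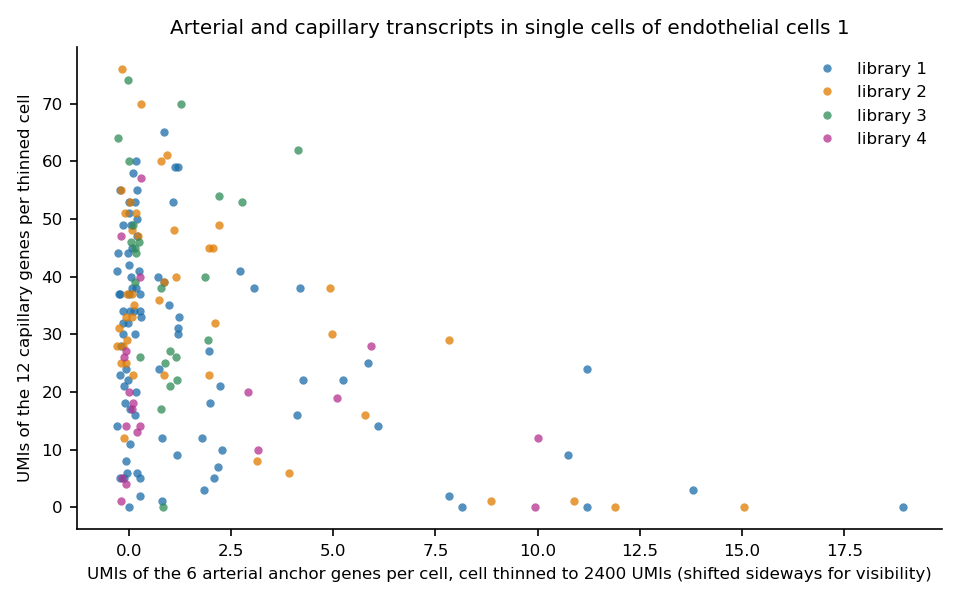
Each point is 1 EC1 cell thinned to 2400 UMIs: UMIs summed over the 6 anchor genes (points shifted sideways for sight) against UMIs summed over the 12 capillary genes, with colour for the library. Of the 14 cells with 8 or more anchor UMIs 10 have 3 or fewer capillary UMIs and the others up to 29, while cells with 0 spread from 0 to 76.

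Full counts of the 49 cells with 2 or more anchor UMIs were then summed per library (23, 15, 5 and 6 cells) and compared with those of the 97 cells with 0 (52, 21, 10 and 14 cells), with the 6 anchor genes left out of the fit. Of 3782 genes 20 were higher in the anchor cells (0.529%) and 5 lower (0.132%), together 0.661%, and 18 of these 25 went the same way in all 4 libraries. The higher genes included the arterial genes Jag1, Sox17 and Edn1, and the lower ones the capillary gene Car4. Without the library block 1 gene was called, Igf1, and the count was 9 without library 1, 6 without library 2, 51 without library 3, 47 without library 4 and 7 with DESeq2. With a split at 1 or more anchor UMIs edgeR called 0 genes, with 254 at an unadjusted p under 0.05. All 25 genes kept their direction in every alternative where they were tested.
Jag1, the Notch ligand, was at 206, 195, 64.9 and 319 CPM in anchor cells and at 58.2, 66.2, 23.4 and 83.4 CPM in anchor-free cells (1.73 ± 0.26, adjusted p = 0.0107). Sox17 was at 601, 516, 195 and 663 CPM against 283, 270, 105 and 277 CPM (1.04 ± 0.20, adjusted p = 0.0218). Both arterial genes were higher in all 4 libraries. Jag1 lost its call without library 1 (adjusted p = 0.0727, the highest of a range from 1.5e-05), and Sox17 without library 1 (0.237) or library 2 (0.177), in a range of 0.00587 to 0.344. Of 12 alternatives Jag1 kept its call in 9 and Sox17 in 7. Clu, the secreted chaperone clusterin, was at 459, 901, 195 and 549 CPM against 118, 10.2, 35.0 and 233 CPM (2.42 ± 0.44, adjusted p = 0.0158). Atp2a3, a calcium pump, was at 202, 70.1, 97.4 and 268 CPM against 38.2, 30.6, 0 and 8.78 CPM (2.66 ± 0.43). Fn1, fibronectin (2.17 ± 0.35), and Edn1, the vessel-constricting peptide endothelin (1.62 ± 0.31), were higher in 3 of 4 libraries, with library 3 the other way.
Igf1 was at 4.29, 15.0, 0 and 0 CPM in anchor cells and at 79.8, 76.4, 117 and 70.2 CPM in anchor-free cells (-3.39 ± 0.56, adjusted p = 0.0107). The ranges were far apart but rest on 4 and 89 UMIs, and its adjusted p was 0.0287 without the block, in a range of 3.66e-06 to 0.161. Scarb1 was at 519, 425, 487 and 217 CPM against 778, 1080, 829 and 768 CPM (-1.13 ± 0.22, adjusted p = 0.0222); without library 2 its adjusted p was 0.356, in a range of 3.2e-05 to 0.357. Car4 was at 133, 135, 130 and 51.0 CPM against 291, 448, 502 and 39.5 CPM (-1.37 ± 0.27, adjusted p = 0.022), so that library 4 was not lower. Car4 lost its call without library 1 (0.162) or library 2 (0.395), in a range of 0.000405 to 0.55. It also lost the call without the block (0.55), with DESeq2 (0.474), at 3 or more anchor UMIs (0.207) and with Sema3g alone (0.4345). In all, Car4 kept its call in 5 of 12 alternatives. Over the lists, 3 of 13 arterial genes were higher and 0 lower, with a median of 0.67 against -0.01 over all genes. Of 12 capillary genes 0 were higher and 1 lower (median -0.23), and of 8 venous genes none was called (median -0.79).

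**Figure D5:**
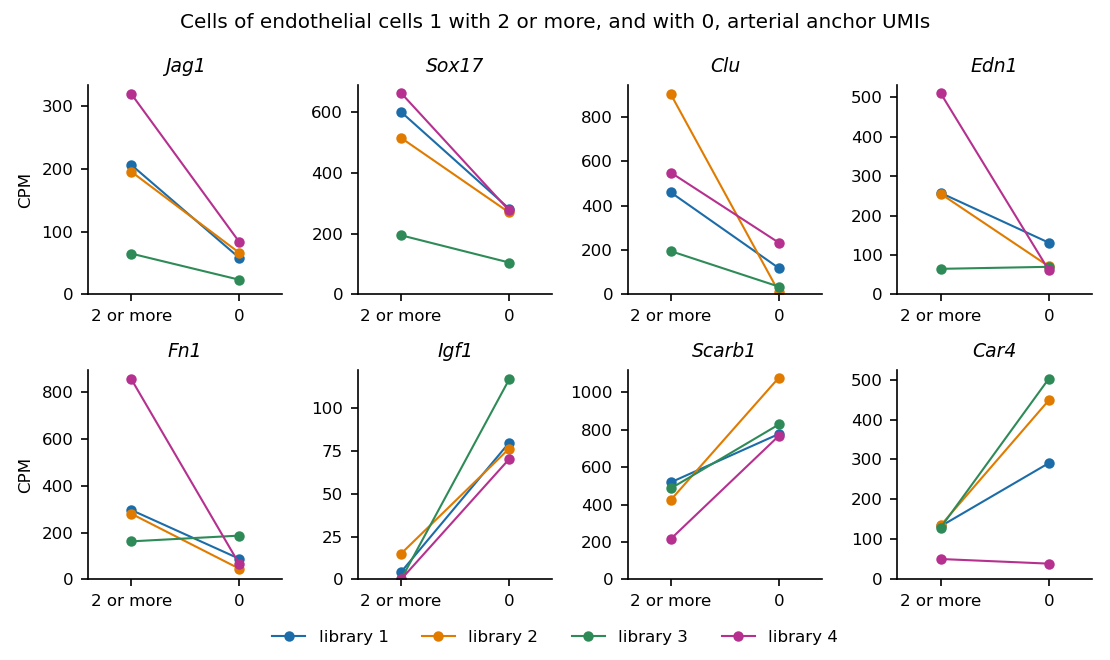
CPM of 8 genes in EC1 cells with 2 or more arterial anchor UMIs and with 0, with 1 line for each library. Jag1, Sox17 and Clu fall toward the anchor-free cells in all 4 libraries and Igf1 and Scarb1 rise, while Fn1, Edn1 and Car4 each have 1 library that goes the other way.

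Variation between EC1 cells was described by the Fano factor, the variance over the mean of thinned counts, which is 1 for pure counting noise. Over 4267 genes the median was 1.09, and 146 genes had 2 or more. Outside hemoglobin and mitochondrial genes the highest value belonged to Gm42418, at 50.6, which overlaps AY036118. Fabp4 came next, at 35.4: thinned cells had a median of 53.5 and a maximum of 211 Fabp4 UMIs, and 166 of 176 cells had at least 1. The chemokine gene Cxcl12 had 9.86 with UMIs in 163 cells, and Aqp1 8.14 with UMIs in 107 cells. Cells of all 4 libraries were pooled, so differences between libraries also enter the Fano factors. Mean Aqp1 UMIs per thinned cell were 3.71, 6.63, 8.04 and 2.05 in libraries 1 to 4. Malat1, a nuclear noncoding RNA, had 16.0 with UMIs in 175 cells. Other genes were seen in few cells: Mgp had 14.1 with UMIs in 25 cells, and 10 cells held 86.2% of its thinned UMIs. Rgs5, a pericyte gene, had 8.15 in 22 cells. Among the 12 genes with the highest values were also AC160336.1 (UMIs in 150 cells), Dync1i2, Xaf1 and Gm26870.
Spearman rank correlations were taken across the 176 thinned cells, which share libraries and are not replicates. Fabp4 correlated with Gpihbp1 (0.651), Car4 (0.496) and Aqp7 (0.394). Sema3g correlated at 0.228 with Mgp, at -0.33 with Aqp1 and at -0.193 with Cxcl12.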

How the data were processed

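UMI counts per gene and cell for 4 libraries, and cell type names, were deposited by the authors. Cell Ranger, R 3.5.2, Seurat 2.3.4 and the build mm10 are named in the submitters' processing notes, with no role for each. The deposited natural log values equal ln(1 + 10000 × count / total) of the deposited counts to within 5e-10, and only the counts were used for tests. Of 15750 gene entries, 4 repeated names (0.0186% of UMIs) were left out. Counts were summed per library and cell class (5 or more cells a sum) and tested with edgeR 4.0.16 in R 4.3.3: TMM scaling, filterByExpr, quasi-likelihood test, the library as a block, Benjamini-Hochberg adjustment over all genes tested. Both sums of a comparison come from the same library, which pairs them; correlations of the paired deviations from the group means were 0.0386 to 0.140 against other cells, -0.00857 to 0.147 against EC2, 0.00427 to 0.103 against pericytes and 0.00603 to 0.256 in the anchor split. Cells were thinned to 2400 UMIs for detection, the anchor split and Fano factors. EC1 libraries held 189471 to 1011141 UMIs in all, so library 3 gives the least precise values.

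Members and gene lists were chosen with earlier results of these data known. Named genes were the 12 largest rises and 8 largest falls (8 and 8 in the anchor split) with an adjusted p under 0.05, 1 direction in every library and 100 CPM or more (50 in the split) on the higher side. For levels they were the 10 highest ratios at 100 CPM or more, and for variation the 12 highest Fano factors outside hemoglobin and mitochondrial genes; list members were added as examples, and genes beyond these rules were singled out after their values were seen. On simulated data with 200 changed genes the test recovered 96.5% against other cells (9050 genes), 99% against EC2 (5126 genes), 96.5% against pericytes (5493 genes) and 98% in the anchor split (3782 genes), at a log2 change of 2. Unchanged genes called in these simulations numbered 5, 6, 12 and 9. The simulated counts had 1 dispersion for all genes and no difference between libraries except depth, so these shares do not give the recovery in the real counts. Alternatives were other scaling, no low-count filter, no block, DESeq2 1.42.0, each library left out, possible doublets left out, thinned cells and other anchor cutoffs. Of 76 genes looked up, 75 were in the annotation. Some genes that these rules name are not reported here.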

Additional observations from a re-analysis of the deposited data

Results flagged for a closer look

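Summed levels of gene lists and levels of single genes were examined for a library far from the other 3, in 30 groups of 4 libraries, of which about 1 in 20 would stand out by chance; 2 did. The hemoglobin list in EC1 summed to 7368 CPM in library 4 and to 195 to 540 CPM in the others. A single cell of library 4, with 34138 UMIs of which 6.15% were hemoglobin, held 2101 of the 2812 hemoglobin UMIs (74.7%), and without it the pooled level of EC1 was 363 CPM in place of 1412 CPM. The arterial list in EC1 summed to 12992 CPM in library 4 and to 9392 to 9822 CPM in the others.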

How the results depend on the processing

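None of the genes named by size of difference reversed, but the hemoglobin genes did. All 4 were called lower in EC1 than in other cells, with a median log2 difference of -7.35. With red blood cells left out of the other cells, the differences were 0.82 (Hba-a1), 1.16 (Hba-a2), 0.82 (Hbb-bs) and 0.09 (Hbb-bt). None of these was then called. Called genes against other cells (2665) numbered 1803 to 2681 with a library left out and 1005 in thinned cells. Against EC2 (933) the count was 484 to 997 with a library left out, lowest without library 2, 570 with DESeq2 and 287 in thinned cells. Against pericytes (1877) it was 1310 to 2238 with a library left out, 2918 with no filter on low counts and 494 in thinned cells. Thinned sums hold fewer UMIs. Without the replicate block, in which each library pairs its 2 sums, the counts were 2745, 880 and 1993. In the anchor split (25) no replicate block left 1 call, DESeq2 7, a library left out 6 to 51, no filter 107, a split at 1 anchor UMI 0, at 3 anchor UMIs 77 and Sema3g alone 45; the cause was not tested. The split without possible doublets was not run, since it left too few libraries. The 20 named genes of each comparison between labels kept their calls in every alternative where they were tested, while all 12 of the anchor split lost theirs in at least 1. Leaving out hemoglobin-rich cells, chosen after seeing the data, gave 2638, 919, 1831 and 22 calls. EC1 was 64.3% of endothelial cells. Unthinned, Aqp7 was in 64.9%, Sema3g in 49.5% and Cxcl12 in 96.8% of cells.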
